A study of Mus musculus with 20 samples.

Results

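The comparison is between 2 dose-rates of chronic gamma irradiation in mouse liver. The 3 livers of the high dose-rate group (H1) came from mice given 16.6 mGy per day, and the 3 livers of the medium dose-rate group (M1) from mice given 0.858 mGy per day. The members were taken by their titles and make up 6 of the 20 arrays of the series. Both groups were male C57BL/6J mice irradiated with 137Cs gamma rays for 22 hours a day over 485 days, starting at 8 weeks of age. The cumulative dose was 8030 mGy in H1 and 416 mGy in M1, so dose-rate and total dose cannot be told apart here. Each array held liver RNA of 1 mouse, taken when irradiation ended.

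A second set of mice was irradiated for 401 days. Its high group (H2, 3 mice) received 20.0 mGy per day and 8015 mGy in all, and its medium group (M2, 3 mice) received 1.00 mGy per day and 401 mGy in all. The 485-day experiment also had a low group (L1, 3 mice at 0.042 mGy per day) and 1 array of RNA pooled from 3 unirradiated mice (C1). No group carried a genetic change beyond the C57BL/6J background, as far as the labels say. All levels below are MAS5 signals, a linear measure of probe brightness, and all differences are high minus medium on the scale log2(signal + 7.12), which understates differences of dim genes. A gene is called separate where its 3 signals in one group do not overlap the 3 in the other.

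Ionising radiation breaks DNA and is sensed in mammalian cells by the ATM and ATR kinases, which activate p53. Nucleic acids in the wrong compartment can also start an interferon response. Type I interferons act through transcription factors such as IRF9, which binds interferon-stimulated response elements. The induced genes encode RNA sensors, antiviral enzymes and GTPases that attack the vacuoles of intracellular parasites. In the liver, hepatocytes and Kupffer cells both respond to interferons.

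Median signals were 87.1 to 100.8 in H1 and 84.7 to 96.7 in M1, and the ratio of the 3′ to the 5′ Gapdh control was 0.706 to 0.75 in H1 and 0.701 to 0.753 in M1. The same ratio for the actin control was 1.99 to 2.06 in H1 and 2.05 to 2.13 in M1, a small overlap, and its part in the results was not tested. Log2 signals correlated at 0.964 to 0.967 within H1, 0.966 to 0.969 within M1 and 0.960 to 0.975 between the groups. Of 15 hepatocyte markers 13 were measured, with albumin (Alb) at 64056, 73947 and 72384 in H1 and 58549.8, 65050.5 and 63355 in M1. Differences in the number of cells of a type and in RNA per cell cannot be told apart in whole liver.

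In the limma fit over 11217 genes, 0 genes passed an adjusted p of 0.05 between H1 and M1 (0% in either direction). At an unadjusted p under 0.05 the fit gave 252 higher genes (2.25%) and 201 lower genes (1.79%), 453 in all, where 5% of the genes would be 561. The smallest adjusted p was 0.15, for H2bc22. The plot of all genes shows differences of at least 2-fold on this scale for 92 genes higher and 80 lower in H1. Separate signals were found for 484 genes higher in H1 (4.31%) and 459 lower (4.09%), 943 in all (8.41%). The results below are therefore values and counts of genes that did not pass the test, and each count is read against these shares.

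**Figure D1:**
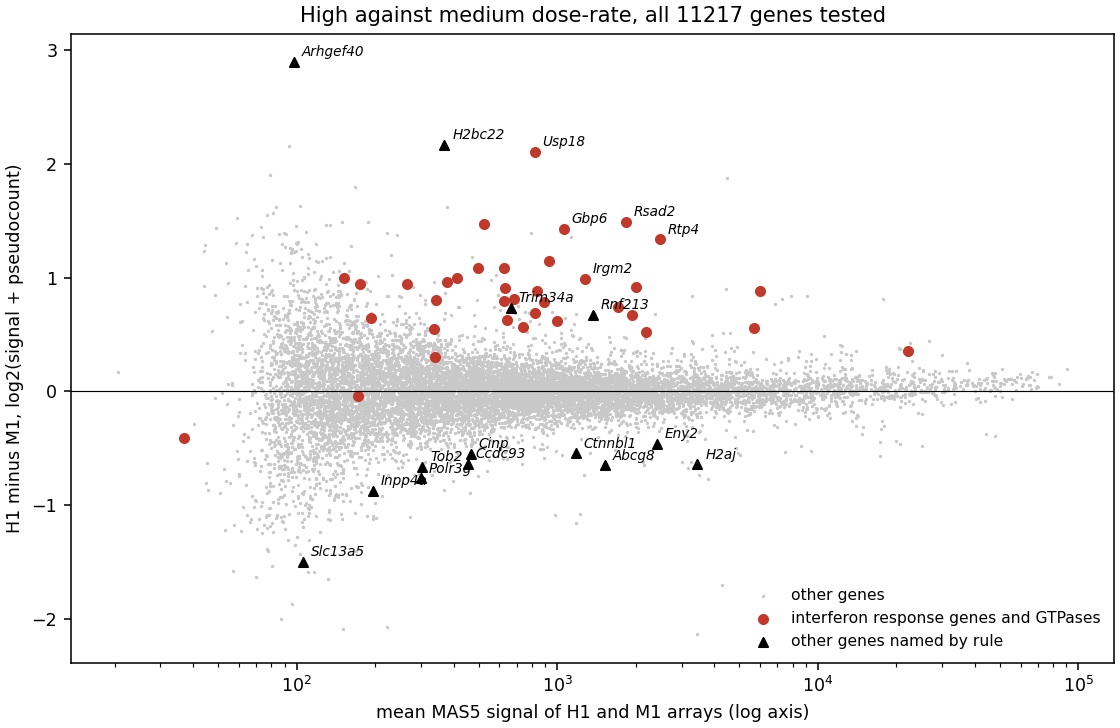
Each point is 1 gene, with the mean MAS5 signal of the 6 arrays on a log x axis and the H1 minus M1 difference in log2(signal + 7.12) on the y axis. Red circles are the 36 interferon response genes and immunity GTPases, of which 34 lie above 0, and black triangles are the other named genes, none of which passed the test.

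The genes with the smallest p among those higher in H1 were mostly interferon genes. Of the 10 named by rule, 6 belonged to the interferon lists (Gbp6, Usp18, Irgm2, Igtp, Ifih1 and Ddx58), and none of the 10 lower ones did. The interferon response list had 27 measured genes of 35 listed. In H1 against M1, 26 of the 27 were positive, against 50.1% of all genes, 21 were separate higher, against 4.31%, and 0 were separate lower. An unadjusted p under 0.05 was reached by 22 of the 27, all higher, against 2.25%, and 0 passed after adjustment. The list median was 0.88, a 1.84-fold level on this scale, beside a median of 0.00 over all genes. The list was chosen with earlier results of these data known, so the count describes it and is no independent support.

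Among the regulators, Usp18 removes the ubiquitin-like ISG15 and dampens the type I interferon receptor. Its signal was 920.4, 2474 and 718 in the 3 H1 livers, against 230.3, 294 and 286 in the 3 M1 livers. All 3 H1 values lay above the highest M1 value, and the second H1 mouse was well above the other two. The difference was 2.10 ± 0.41 (SE), with an adjusted p of 0.189. Irf7, a transcription factor that amplifies the response, had 1657, 1312 and 911 in H1 against 698, 494 and 518 in M1, again without overlap, a difference of 1.15 ± 0.28 (adjusted p 0.497). Irf9, a transcription factor of the type I interferon response, had 1016, 1048 and 568 in H1 against 641, 410.2 and 414 in M1, where the lowest H1 value fell inside the M1 range. Stat2, which binds DNA together with IRF9, overlapped, with a difference of 0.30 ± 0.32.

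The cytosolic RNA sensors Ifih1, Ddx58 and Dhx58 were separate as well. Ifih1, which encodes MDA5, had 2034, 2779 and 1663 in H1 against 1191, 1233 and 1360.5 in M1, a difference of 0.74 ± 0.16 with an adjusted p of 0.328. Ddx58, which encodes RIG-I, had 1215, 1216 and 944 in H1 against 634, 564 and 747 in M1, a difference of 0.79 ± 0.19 with an adjusted p of 0.492. Their relative Dhx58 was dimmer, at 175, 346 and 201 in H1 against 161, 142 and 132 in M1. Zbp1, a sensor of Z-form nucleic acid, had 299.6, 632 and 387 in H1 against 190.2, 216 and 325 in M1, and the groups overlapped.

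Antiviral effectors followed the sensors. Rsad2, the radical SAM enzyme viperin, had 1505, 5218 and 1657 in H1 against 613, 1183 and 798 in M1, a difference of 1.49 ± 0.40. Ifit1, which binds viral RNA ends, had 542, 1539 and 355 in H1 against 247, 193 and 276 in M1, a difference of 1.47 ± 0.43. Rtp4 had 2410.2, 6429 and 2117 in H1 against 906, 1429 and 1554 in M1, a difference of 1.34 ± 0.33. In each of these 3 genes the second H1 mouse carried the highest value, and the other H1 mice were still above every M1 mouse. Oas1a, a synthetase whose product activates RNase L, had 499, 1105 and 466 in H1 against 268, 359 and 271 in M1 (1.08 ± 0.27). Oasl1 had 1035, 1578 and 708 in H1 against 648, 557 and 505 in M1 (0.88 ± 0.25). The lone negative member was Oas2, a dim probe set at 34.9, 27.1 and 29.4 in H1 against 32.2, 40.3 and 58.7 in M1, with a difference of -0.41 ± 0.58. The abundant Ifi27 and Bst2, the membrane tether tetherin, differed by 0.89 ± 0.23 and 0.56 ± 0.20, and only Ifi27 was separate of this pair.

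The immunity-related and guanylate-binding GTPases, which interferon gamma induces strongly, formed the second list. Of its 9 measured genes, 8 were positive (50.1% of all genes were) and 6 were separate higher (4.31%). An unadjusted p under 0.05 was reached by 7, all higher (2.25%), and the median was 0.68. This list too was chosen with earlier results of these data known. Gbp6 had 1666, 1866 and 1126 in H1 against 541, 507 and 641 in M1, with every H1 liver above every M1 liver. Its difference was 1.43 ± 0.26, a 2.69-fold level, with an adjusted p of 0.189. Irgm2 had 1378, 2434 and 1343 in H1 against 859, 762 and 864 in M1, a difference of 0.99 ± 0.19 with an adjusted p of 0.189. Igtp had 2332, 3573 and 1984 in H1 against 1256, 1109.6 and 1730.4 in M1, a difference of 0.92 ± 0.19 with an adjusted p of 0.292. Irgm1 and Gbp7 were separate too, with differences of 0.67 ± 0.20 and 0.56 ± 0.18. Iigp1, the brightest of the list, had 22946, 28301 and 23579 in H1 against 18390.3, 19743 and 20159 in M1, a smaller difference of 0.35 ± 0.12. Gbp2 and Gbp3 overlapped at 0.55 ± 0.29 and 0.96 ± 0.37, and Gbp8 was at -0.04 ± 0.28.

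**Figure D2:**
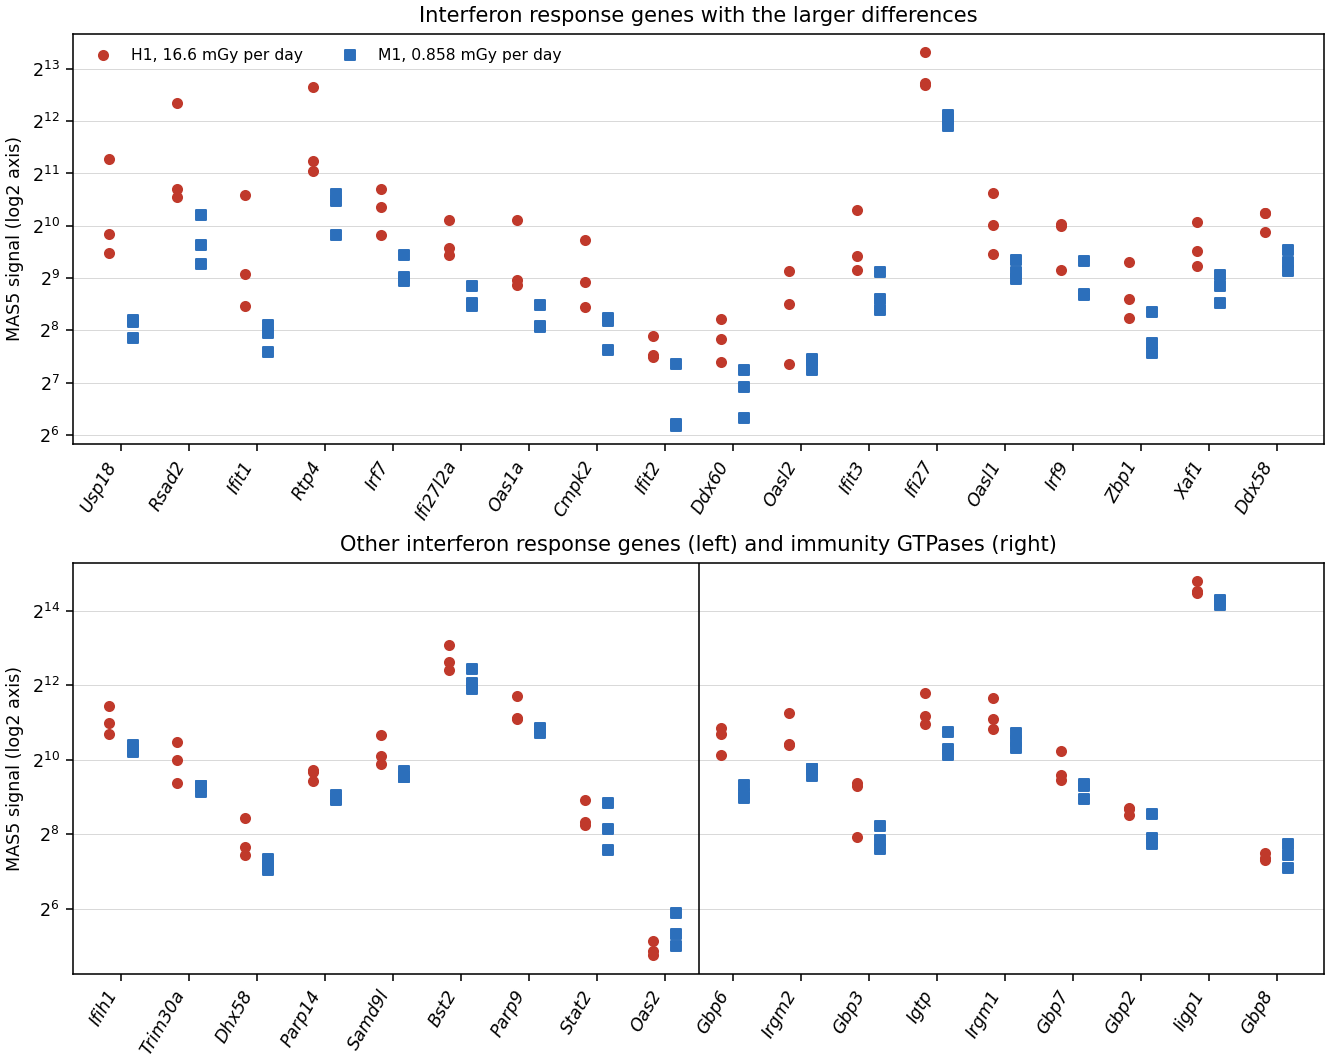
MAS5 signals on a log2 axis of the 36 interferon response genes and immunity GTPases, with 1 red circle per H1 mouse to the left and 1 blue square per M1 mouse to the right, and genes ordered by difference within each list. In 27 of the 36 genes no red circle lies at or below a blue square.

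Of the 36 genes on the 2 lists together, 16 had a further probe set, and all 19 further probe sets gave a difference of the same sign as the one used. Close relatives such as the Ifit, Oas and Gbp genes can share probe sequence, and 0 of the 36 were read from a probe set whose name marks such sharing. The choice of probe sets put such names last, so this count does not show that sharing is absent. A further 2 interferon-induced genes outside the lists were also among the 10 higher ones. Rnf213, a ubiquitin ligase, had 1652, 1853 and 1559.8 in H1 against 1001, 1073 and 1089 in M1 (0.67 ± 0.15, adjusted p 0.353). Trim34a, a member of the tripartite motif family, had 792, 1084 and 638 in H1 against 466, 548 and 460.3 in M1 (0.73 ± 0.17, adjusted p 0.476).

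The interferon difference was unequal between the mice. The median over the 27 response genes, relative to the mean of the M1 livers, was 0.74, 1.26 and 0.46 in the 3 H1 livers, against -0.07, -0.07 and 0.08 in the 3 M1 livers. The lowest H1 mouse was thus above all M1 mice, and the second H1 mouse was the highest. Without that mouse the list median was 0.59, and 21 of the 27 genes had the other 2 H1 signals above all 3 M1 signals. Over the 9 GTPases the same measure was 0.63, 1.15 and 0.30 in H1, against -0.08, -0.14 and 0.19 in M1.

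The other groups of the 485-day experiment spread across the same range. Relative to the same M1 mean, the 27 response genes had a median of 0.05 in the unirradiated pool and 0.51, -0.04 and 0.81 in the 3 L1 livers. Along the dose-rates, 2 of the 3 low dose-rate livers therefore lay within the range of the high group and the other within that of the medium group. Usp18 had 249.8 in the pool and 509.5, 272 and 1049.9 in L1. Its signals were 230.3, 294 and 286 in M1 and 920.4, 2474 and 718 in H1. For this gene the third L1 value lay within the H1 range, the second within the M1 range and the first between them. The list median was 0.44 for H1 against L1, -0.44 for M1 against L1, 0.82 for H1 against C1 and -0.05 for M1 against C1, and these comparisons share arrays with each other and with H1 against M1. In H1 against L1, 1 gene passed (0.00892%), Ppp1r3c, which targets protein phosphatase to glycogen and was named after its value was seen. It had a mean signal of 8551 in H1 against 3613 in L1, with an adjusted p of 0.0492, and 962 genes had an unadjusted p under 0.05. Leaving out any H1 mouse or the first or second L1 mouse ended that call. In M1 against L1 limma called 0 genes, with 925 at an unadjusted p under 0.05. Against the single pool C1, whose own spread is unknown, limma called 11 higher (0.0981%) and 1 lower gene (0.00892%) for H1, and 12 higher (0.107%) and 2 lower genes (0.0178%) for M1.

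**Figure D3:**
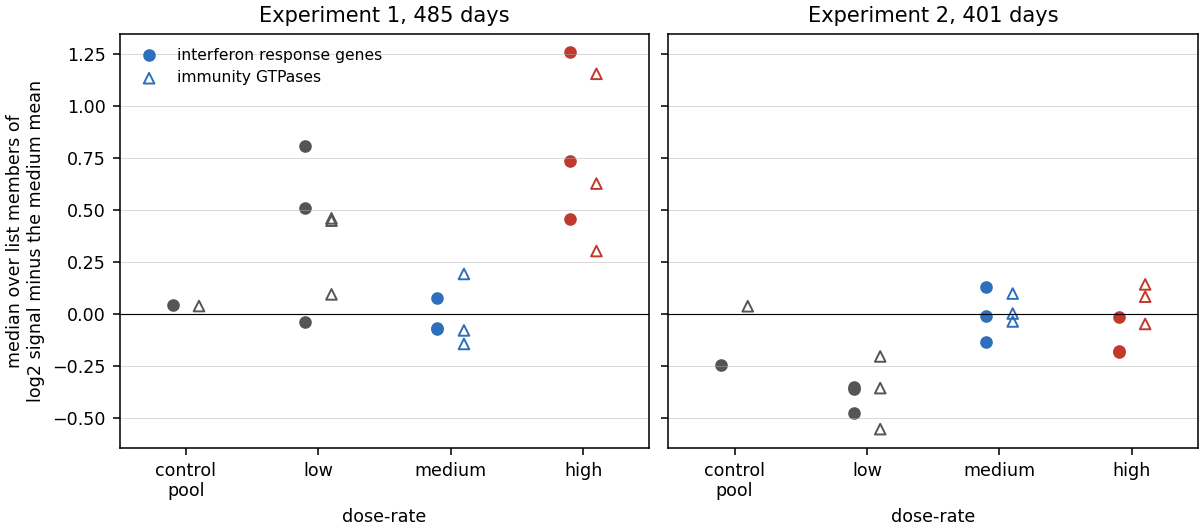
Each symbol is 1 array, grouped from the control pool to the high dose-rate, with the median over list members of the log2 signal minus the mean of the medium group of the same experiment on the y axis. Filled circles are the 27 interferon response genes and open triangles the 9 GTPases. The 3 H1 circles at 0.46 to 1.26 lie above the M1 circles, 2 of the 3 L1 circles lie as high as H1, and the H2 circles at -0.18 to -0.02 lie among or below those of M2.

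The mice of the 401-day experiment share no array with H1 and M1, and most of the response genes were lower in their high group. In H2 against M2 the response list had a median of -0.18, 7 of 27 genes were positive (47.1% of all genes were), 1 was separate higher (5.17% of all genes) and 4 separate lower (6.58%). The GTPase list had a median of 0.11, with 7 of 9 genes positive, 2 separate higher and 0 separate lower. Usp18 differed by -0.29 ± 0.41 and Gbp6 by -0.29 ± 0.26 in those mice. The test of the difference between the experiments, (H1 - M1) - (H2 - M2), passed for 0 genes in limma, with a smallest adjusted p of 0.768. At an unadjusted p under 0.05 it gave 332 genes with the larger difference in H1 against M1 (2.96%) and 223 with the smaller (1.99%), 555 in all. In that test 26 of the 27 response genes were positive, and 18 had an unadjusted p under 0.05, all with the larger difference in H1 against M1, against 2.96% of all genes. The contrast contains the H1 against M1 difference itself, and the list was chosen with earlier results of these data known. These counts therefore describe the list and are no independent support for a difference between the experiments. Gbp6 was among the 3 genes with the smallest p there, with an interaction of 1.72 ± 0.37. H2 against M2 itself called 0 genes in limma, with a smallest adjusted p of 0.812 and 247 higher (2.2%) and 292 lower genes (2.6%) at an unadjusted p under 0.05.

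**Figure D4:**
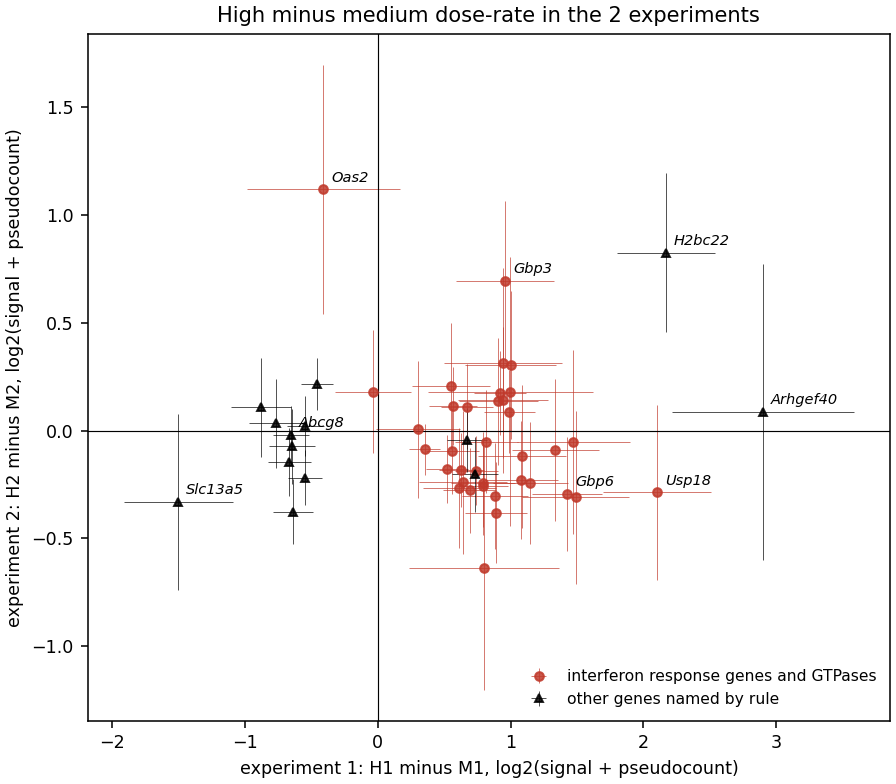
Each point is 1 gene with standard error bars, the H1 minus M1 difference on the x axis and the H2 minus M2 difference on the y axis, both in log2(signal + 7.12). Red circles are the interferon genes, which lie to the right of 0 except for Oas2 and Gbp8 and on both sides of 0 on the y axis, and black triangles are the other named genes.

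Over all genes, separate genes of the 485-day experiment were set against the 401-day mice. Of the 484 genes separate higher in H1, 211 (43.6%) had the same sign in H2 against M2 and 24 (4.96%) were separate the same way, beside 5.17% of all genes. Of the 459 separate lower, 227 (49.5%) had the same sign and 20 (4.36%) were separate the same way, beside 6.58% of all genes. Of the 10 named genes higher in H1, 4 had the same sign in H2 against M2 and 0 were separate, and of the 10 lower, 6 had the same sign and 1, Ctnnbl1, was separate. The other 2 genes with the smallest interaction p were A330009N23Rik, an uncharacterised transcript at -1.63 ± 0.45 in experiment 1 and 1.32 ± 0.45 in experiment 2, and Frat1, a GSK3-binding protein, at 1.18 ± 0.58 and -2.26 ± 0.58. Both are dim, with Frat1 at 120, 119.6 and 189 in H1 against 29.9, 116 and 52.5 in M1.

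The response element of type I interferons was looked for upstream of these genes, since they differed in the same direction. The letters GAAANNGAAA were searched on both strands in the 300 bases from 250 before to 50 after each gene start, in RefSeq promoters of build GRCm38.p6, and 335 of 9115 tested genes with a promoter held them (3.68%). Promoters were matched for 24 of the 36 interferon genes, and 16 of those held the letters (66.7%), 10 of 18 on the response list and 6 of 6 among the GTPases. Of the interferon genes separate higher in H1, 12 of 18 held them (66.7%), the same share as on the lists as a whole. The lists were written from known interferon genes, so the share describes the lists and not the difference between H1 and M1. A match describes the sequence and is not a measured site. Genes separate higher but outside the interferon lists held GAAANNGAAA in 22 of 376 promoters (5.85%), and genes separate lower in 12 of 381 (3.15%). Stretches around the matches follow for 7 separate genes as examples, 5′ to 3′ on the strand of the gene. Gbp2, Gbp3, Bst2 and Stat2, whose groups overlapped, held the letters too. Capitals mark the matches, and TTTC before TTTC is the element read on the opposite strand.
Irgm2: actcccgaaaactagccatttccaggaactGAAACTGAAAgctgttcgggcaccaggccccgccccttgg
Igtp: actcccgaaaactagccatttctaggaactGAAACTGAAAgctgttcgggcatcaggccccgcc
Irgm1: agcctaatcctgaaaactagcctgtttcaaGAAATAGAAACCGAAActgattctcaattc
Gbp7: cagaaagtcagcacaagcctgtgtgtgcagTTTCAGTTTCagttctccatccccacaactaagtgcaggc
Ifit1: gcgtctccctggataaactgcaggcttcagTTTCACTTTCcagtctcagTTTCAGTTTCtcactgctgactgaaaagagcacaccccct
Oas1a: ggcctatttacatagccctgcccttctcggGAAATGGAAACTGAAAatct
Rsad2: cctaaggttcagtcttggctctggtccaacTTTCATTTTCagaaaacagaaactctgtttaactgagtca
The Irgm2 and Igtp stretches carry the same match in nearly the same surroundings, and both genes lie on chromosome 11 at chr11:58214883-58214952 and chr11:58199492-58199555 on the plus strand. Irgm1 lies on the minus strand of the same chromosome at chr11:48871421-48871480. The others are at chr3:142530253-142530322 (Gbp7, plus), chr19:34640755-34640843 (Ifit1, plus), chr5:120907526-120907575 (Oas1a, minus) and chr12:26456533-26456602 (Rsad2, minus). All stretches lie upstream of the annotated start of transcription, with the nearest match ending 55 bases before the start of Irgm2, 25 before Igtp and 5 before Oas1a. Irgm1, Ifit1 and Oas1a hold 2 matches each, which overlap in Irgm1 and Oas1a.

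Antigen presentation by MHC class I, which interferons also induce, differed less between the groups. All 11 measured genes of the list were positive, 2 were separate higher (4.31% of all genes) and the median was 0.20, beside -0.07 in H2 against M2. H2-K1, a classical class I heavy chain, had 33627, 37532 and 29299.5 in H1 against 27479.8, 27084 and 25555 in M1 (0.32 ± 0.09, adjusted p 0.588). B2m, its light chain, had 50845, 57389.6 and 54552 in H1 against 46099, 47770.4 and 48068 in M1 (0.20 ± 0.09), without overlap. The peptide transporter Tap1 overlapped at 0.64 ± 0.21, and 1 of its 3 other probe sets had the opposite sign. The immunoproteasome subunit Psmb8 was at 0.41 ± 0.20. Of the 7 measured class II genes 1 was separate higher (4.31% of all genes). The class II list had a median of 0.21, and -0.04 when probe sets of a gene were averaged. Without the first, the second and the third M1 mouse it was 0.12, 0.07 and 0.42.

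Markers of immune cells were read beside the interferon genes. The 17 Kupffer cell and macrophage markers had a median of 0.16 and 0 separate genes, and their summed signal was 39462 to 49164 in H1 and 37162 to 52228 in M1. Their median was 0.04 without the second M1 mouse, 0.29 without the third and 0.08 without the third H1 mouse. The 7 monocyte and neutrophil markers had a median of 0.00. The 5 B cell markers had a median of 0.08 with 1 separate higher (4.31% of all genes). For the 8 plasma cell markers it was -0.14 (0.09 without the second H1 mouse and -0.28 without the first). For the 4 measured T and NK cell markers, of 16 on the array, it was 0.04. The 5 dendritic cell markers were all positive with a median of 0.32 and 0 separate, and 1 of them, Bst2, is an interferon gene. That median was 0.09 without the second M1 mouse, 0.52 without the first and 0.21 without the first H1 mouse. Their summed signal was 6106 to 9125 in H1 and 4485 to 6146 in M1. The part of these cells in the interferon difference was not tested.

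The gene with the smallest p higher in H1 was H2bc22, a histone H2B gene. It was read from a probe set whose name ends in _x_at, which marks sequence shared with other transcripts, so signal from other histone genes cannot be told apart from its own. Its signal was 518, 578 and 692 in H1, against 244, 74.5 and 108 in M1. The unirradiated pool had 112 and the L1 livers 283, 538 and 494. All H1 values lay above all M1 values, and 1 of the 3 L1 mice lay within the H1 range. The difference was 2.17 ± 0.37 with an adjusted p of 0.15, and it was 0.82 ± 0.37 in H2 against M2. Without the first M1 mouse the difference was 2.63 with an adjusted p of 0.00711, the one call among 20 alternative fits. Arhgef40, a guanine nucleotide exchange factor, had 159, 134 and 226 in H1 against 7.9, 8.5 and 49.6 in M1. The difference of 2.90 ± 0.69 rests on dim M1 signals and also on an _x_at probe set. The pool had 188.6 and the L1 livers 206.3, 27.1 and 13.6, so the pool and the first L1 liver lay within the H1 range.

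Among genes lower in H1 the smallest p belonged to Abcg8, which with Abcg5 forms the transporter that secretes cholesterol into bile and the gut. Abcg8 had 1293, 1209 and 1038 in H1, against 1913, 1619 and 2043 in M1. The groups did not overlap. The pool had 1489 and the L1 livers 1741, 1438 and 1910.3. The pool and the second L1 liver lay between the H1 and M1 ranges, and the other L1 livers within the M1 range. The difference was -0.65 ± 0.13 with an adjusted p of 0.239. Its partner Abcg5 had 2479.7, 3165 and 2010 in H1 against 3341, 3234 and 5347 in M1, also separate, a difference of -0.62 ± 0.22. In H2 against M2 they were at -0.02 ± 0.13 for Abcg8 and 0.04 ± 0.22 for Abcg5. The starts of Abcg5 and Abcg8 face away from each other with 109 bases between them on chromosome 17, at chr17:84683012-84683120 of GRCm38.p6, and that shared stretch is given because both partners were separate lower. It holds 0 matches to GAAANNGAAA, and is written on the plus strand.
Abcg5-Abcg8: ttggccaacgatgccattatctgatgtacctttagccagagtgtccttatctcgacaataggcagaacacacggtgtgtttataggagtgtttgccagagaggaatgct
In the bile acid and sterol list as a whole, 28 genes were measured, 3 were separate lower (4.09% of all genes) and 1 separate higher (4.31%), and the median was -0.03. The third lower one was Cyp39a1, an oxysterol hydroxylase, with 421, 595 and 469 in H1 against 691, 677 and 869 in M1 (-0.59 ± 0.26). Cyp8b1, the hydroxylase that sets the cholic acid share, was higher, with 8862, 7871 and 10029 in H1 against 6414, 7844 and 2549.8 in M1 (0.81 ± 0.35).

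The other 9 genes named as lower in H1 had adjusted p from 0.476 to 0.572. Slc13a5, the citrate importer of hepatocytes, had 46.1, 64 and 44.7 in H1 against 202, 117 and 164 in M1, a difference of -1.50 ± 0.41. Polr3g, a subunit of RNA polymerase III, had 317, 191 and 167 in H1 against 368, 399 and 352 in M1 (-0.76 ± 0.21). Ctnnbl1, a protein of the splicing machinery, had 973, 851 and 1036 in H1 against 1282, 1647 and 1272 in M1 (-0.55 ± 0.13) and was also separate lower in H2 (-0.22 ± 0.13). For Ctnnbl1 the L1 livers had 896, 1088 and 1064.5 and the pool 1038, all below the M1 values. Cinp, which takes part in DNA replication and ATR signalling, was at -0.55 ± 0.14. Tob2, an antiproliferative protein, was at -0.66 ± 0.16, with 1 of its 4 other probe sets of opposite sign. H2aj, a histone H2A variant, was at -0.64 ± 0.17 with 1 of 2 opposite. For the remaining 3 genes most or all other probe sets disagreed. These were Ccdc93, an endosomal sorting protein (3 of 3 opposite), Inpp4a, a phosphoinositide phosphatase (1 of 1), and Eny2, a subunit of the SAGA and TREX-2 complexes (3 of 5).

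Genes that answer to DNA damage had list medians of -0.03 to 0.26. Of 20 measured p53 targets, 15 were positive, 2 were separate higher (4.31%) and 1 separate lower (4.09%), and the median was 0.26. Without the third M1 mouse it was 0.17. An unadjusted p under 0.05 was reached by 4 p53 targets higher (2.25% of all genes) and 1 lower (1.79%), and 0 passed after adjustment. Relative to the M1 mean, the list median was 0.24, 0.36 and 0.26 in the 3 H1 livers, against -0.003, 0.07 and -0.19 in M1. It was -0.01, -0.21 and 0.18 in L1 and 0.02 in the pool. Ccng1, cyclin G1, had 1911, 2679 and 2267 in H1 against 1554, 1948 and 1817 in M1, and the lowest H1 value lay within the M1 range (0.36 ± 0.15). Mdm2, the ligase that degrades p53, had 795, 555 and 841 in H1 against 729.8, 255 and 442 in M1, also overlapping (0.71 ± 0.28). Dglucy was separate at 0.51 ± 0.19. In H2 against M2 the list had a median of 0.02. The 34 DNA repair genes had a median of -0.03 with 1 separate higher (4.31%) and 2 lower (4.09%). The 18 cell cycle genes had a median of 0.12 with 2 higher (4.31%) and 1 lower (4.09%). The cell cycle median was -0.02 without the second M1 mouse, 0.02 without the third and 0.25 without the first, and 0.05 without the first H1 mouse and 0.21 without the third. Cdc20, an activator of the anaphase-promoting complex, had 166, 121 and 117 in H1 against 94, 83.9 and 15.9 in M1, all of them low signals. Of its 2 other probe sets 1 had the opposite sign.

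**Figure D5:**
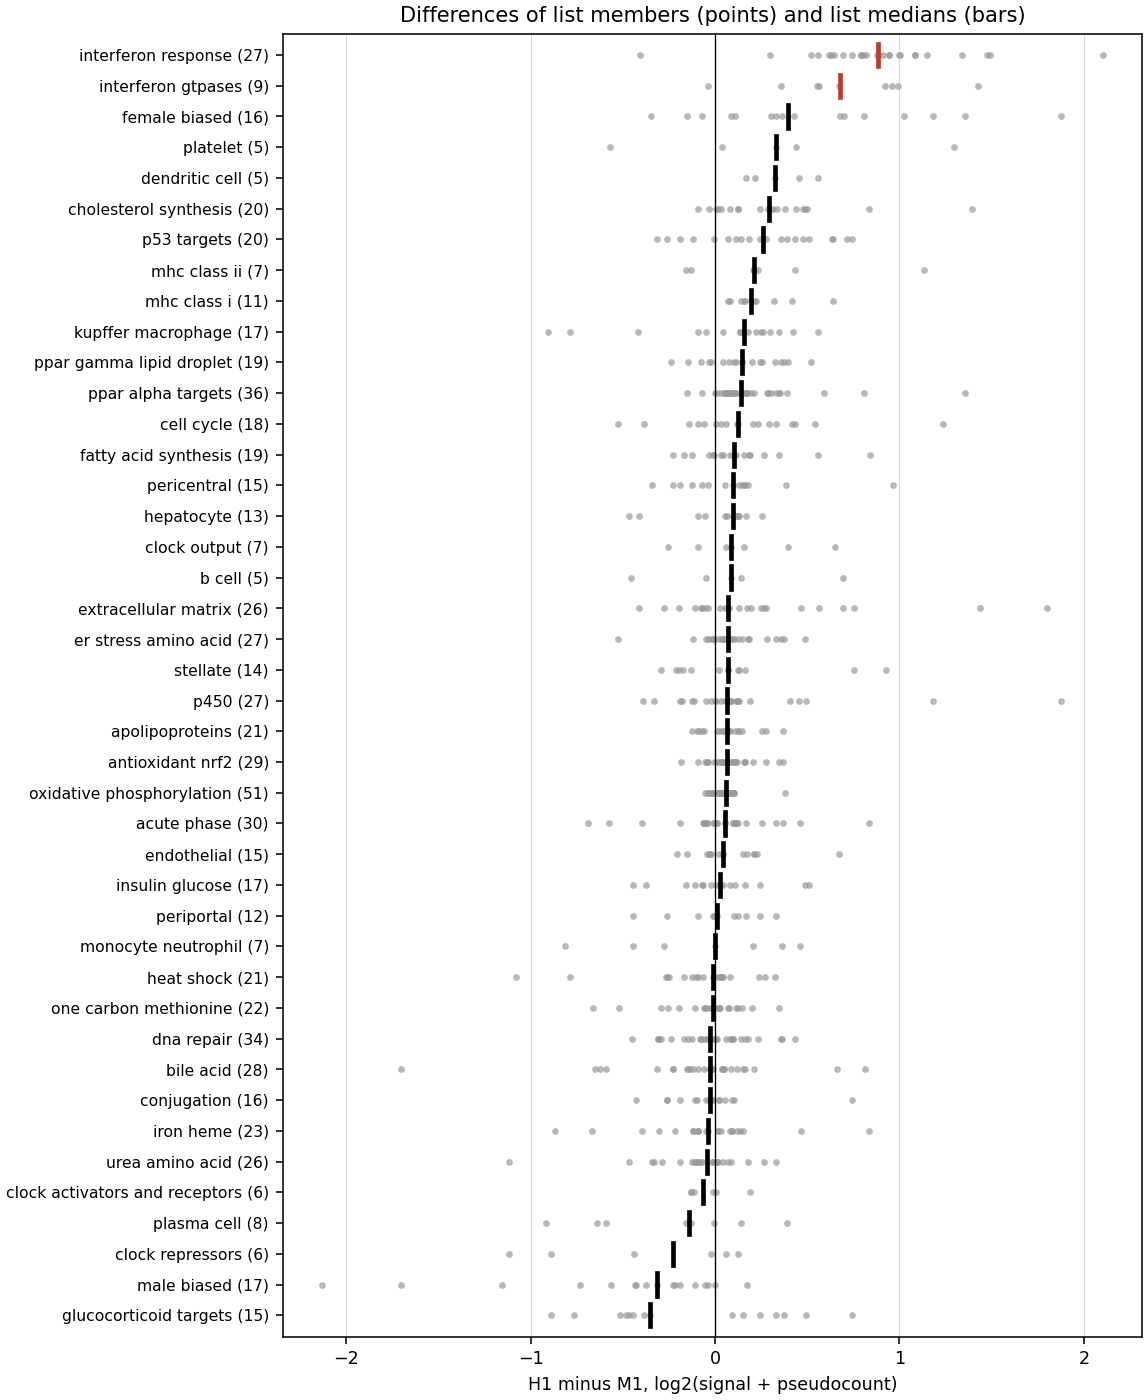
Differences of H1 minus M1 in log2(signal + 7.12) on the x axis for the members of each list with 5 or more measured genes (grey points, number measured in brackets), with the list median as a bar. The 2 interferon lists (red bars) have the highest medians, 0.88 and 0.68, and the glucocorticoid list the lowest, -0.35.

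Among liver genes that differ between the sexes, male-biased ones were mostly lower and female-biased ones mostly higher in H1, and 1 mouse carried much of the difference. These genes follow the pattern of growth hormone release, which differs between male and female mice. Of 17 male-biased genes 16 were negative (50.1% of all genes were positive), 2 were separate lower (4.09%) and the median was -0.32. Slco1a1, an organic anion transporter, had 4319, 128 and 6033 in H1 against 4201, 4475 and 6477 in M1, so that the second H1 liver alone was low. Elovl3, a fatty acid elongase, had 15576, 9095 and 18168 in H1 against 20646, 20847 and 19348 in M1 (-0.56 ± 0.26), without overlap. Relative to M1, the male-biased median was 0.02, -1.26 and -0.08 in the 3 H1 livers, against -0.05, -0.25 and 0.28 in M1. Without the second H1 mouse the list median changed sign, to 0.04, and it was -0.49 without the first H1 mouse and -0.20 without the third M1 mouse.

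Of 16 female-biased genes, 13 were positive, 5 were separate higher (4.31%) and the median was 0.40, or 0.24 without that mouse and 0.18 without the third M1 mouse. Cyp2b9, a female-predominant P450, had 5082, 11998 and 4212 in H1 against 2135, 2492 and 963 in M1 (1.88 ± 0.90). Fmo2, a flavin monooxygenase, had 205, 523 and 233 in H1 against 108, 146 and 175 in M1 (1.02 ± 0.29, adjusted p 0.588). Acot3, a peroxisomal thioesterase, had 1151, 2579.7 and 1039 in H1 against 838, 946 and 225 in M1 (1.36 ± 0.58). The second H1 mouse was the highest in all 3 of these genes. In H2 against M2 the medians were 0.36 for the female-biased list, with 13 of 16 positive, and -0.22 for the male-biased list, with 5 of 17 positive, and neither list had a gene separate in the direction seen in H1. All mice were labelled male.

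Glucocorticoid targets differed in both directions, and more of them were separate lower than separate higher in H1. Glucocorticoids follow the day and rise with stress, and the hour of liver collection is not stated in the labels used here. Of 15 measured genes, 7 were positive and 8 negative (50.1% of all genes were positive), with differences of -0.89 to 0.74. Among them 5 were separate lower (4.09%) and 1 separate higher (4.31%), 6 had an unadjusted p under 0.05, all lower (1.79%), and the median was -0.35. Without the second H1 mouse the median was -0.15. In H2 against M2 the list median was -0.17, with 4 of 15 genes positive (47.1% of all genes were). There 3 genes were separate higher (5.17%) and 0 separate lower (6.58%), unlike in H1 against M1. Tat, tyrosine aminotransferase, had 18719.5, 16495 and 16736 in H1 against 24345, 20912 and 26791 in M1 (-0.47 ± 0.17). Sgk1, a kinase, had 1384, 1063 and 1696 in H1 against 2079, 1949 and 1809 in M1 (-0.52 ± 0.18), and the opposite sign in H2 against M2 (0.47 ± 0.18). Errfi1, an inhibitor of the EGF receptor, had 19572, 19989 and 23275 in H1 against 29035, 24829.5 and 34486 in M1 (-0.48 ± 0.21), and -0.45 ± 0.21 in H2 against M2. Zbtb16 overlapped at -0.77 ± 0.34.

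The circadian lists had medians on both sides of 0. The 6 clock repressors had a median of -0.23, with 2 separate lower (4.09% of all genes) and 0 higher. For the 7 output genes it was 0.09, with 1 separate higher (4.31%) and 0 lower. When single mice were left out, the repressor median ran from -0.34 to -0.17 and the output median from 0.04 to 0.20. Per2, a core repressor of the clock, had 112, 63.4 and 68.2 in H1 against 192, 145 and 208 in M1, without overlap (-1.12 ± 0.31, adjusted p 0.588), and 0.13 ± 0.31 in H2 against M2. Bhlhe40 was separate lower too (-0.44 ± 0.24), and Per1 was dim and overlapping (-0.89 ± 0.50). The output regulator Nfil3 had 1677, 1038 and 1214 in H1 against 986, 718 and 767 in M1 (0.65 ± 0.23) and was separate higher in H2 as well (0.81 ± 0.23). Of the 6 activators and receptors, 0 were separate (8.41% of all genes in either direction), and the median was -0.06. Arntl was at 0.19 ± 0.27, with 1 other probe set of opposite sign.

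In amino acid metabolism 4 of 26 genes were separate lower (4.09%) and 0 higher, and the median was -0.05. Beside Tat these were Agxt, alanine-glyoxylate aminotransferase, with 7214, 7155 and 7739.6 in H1 against 9591, 8771 and 8637 in M1, Got1 at -0.34 ± 0.16, and Slc25a15, the mitochondrial ornithine carrier, at -0.19 ± 0.08. Agxt differed by -0.29 ± 0.13 here and by -0.33 ± 0.13 in H2 against M2. Csad, the decarboxylase of taurine synthesis, had 9664, 7106 and 6624 in H1 against 11252, 12194 and 9824 in M1 (-0.52 ± 0.15, adjusted p 0.588). Pck1, the first committed enzyme of gluconeogenesis, had 15944, 11403 and 17002 in H1 against 19982, 18437 and 21288 in M1 (-0.45 ± 0.20), with 1 of its 2 other probe sets of opposite sign.

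Lipid genes were mostly a little higher in H1. Of 20 cholesterol synthesis genes 18 were positive, with a median of 0.29, and 0 were separate. Sqle, squalene epoxidase, had 1096, 488 and 1902 in H1 against 726, 273 and 273 in M1 (1.39 ± 0.53), and Msmo1 had 8565, 5612 and 16761 in H1 against 6088, 6773 and 3434 in M1 (0.84 ± 0.31). The third H1 mouse was the highest in both, and without it the list median was 0.10. It was 0.16 without the second M1 mouse and 0.16 without the third. Of 36 targets of PPARα, the fatty acid sensor of hepatocytes, 33 were positive, 6 were separate higher (4.31%) and the median was 0.14, beside -0.02 in H2 against M2. Without the second M1 mouse it was 0.22, and 0.09 without the third M1 mouse. Fabp1, the liver fatty acid binding protein, had 91551, 100765 and 96649.6 in H1 against 80094, 88829 and 83492 in M1 (0.20 ± 0.07). Cyp4a14, a fatty acid hydroxylase, had 18097, 24148 and 23859 in H1 against 14896, 18227 and 7138 in M1 (0.81 ± 0.28), where the lowest H1 value fell just inside the M1 range. Cyp4a14 and Acot3 are on both the PPARα and the female-biased list, so those lists are not separate observations. The lipid droplet list had a median of 0.15 (0.09 without the third M1 mouse). Of its 19 genes 2 were separate higher (4.31%), among them Plin5 at 0.36 ± 0.17. In H2 against M2 this list had 0 genes separate higher (5.17% of all genes) and 2 separate lower (6.58%). Apolipoprotein genes stood at 0.06, with Apoc2, the activator of lipoprotein lipase, at 23019, 28055 and 19287 in H1 against 19214, 17924 and 16742 in M1 (0.37 ± 0.14).

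Matrix genes gave 4 of 26 separate higher (4.31%) and 2 lower (4.09%), with a median of 0.07. Lum, the proteoglycan lumican, had 819, 936 and 899 in H1 against 511, 432 and 643 in M1 (0.75 ± 0.28). Col6a1, a chain of collagen VI, had 313, 344 and 314 in H1 against 179, 180.1 and 239.8 in M1 (0.69 ± 0.30). Col6a2, its partner chain, had 260.2, 141 and 373 in H1 against 76.1, 24.9 and 127 in M1 (1.80 ± 0.78), with 1 other probe set of opposite sign. The 14 stellate cell markers had a median of 0.07 with 1 separate higher (4.31%), which was Lum, and the 15 endothelial markers 0.04. Lyve1, an endothelial hyaluronan receptor, had 622, 366 and 458 in H1 against 246, 269.9 and 378 in M1, overlapping by a little (0.67 ± 0.28).

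In the lists of general metabolism and stress the medians lay between -0.04 and 0.10. Oxidative phosphorylation had a median of 0.06 over 51 genes with 3 separate higher (4.31% of all genes). Antioxidant genes stood at 0.06 over 29, cytochromes P450 at 0.07 over 27 and conjugation enzymes at -0.03 over 16. Acute phase genes stood at 0.06 over 30 and heat shock genes at -0.01 over 21. Fatty acid synthesis stood at 0.10 (-0.08 without the second H1 mouse, 0.27 without the third and 0.07 without the third M1 mouse), the amino acid and ER stress response at 0.07, insulin and glucose genes at 0.03, one-carbon metabolism at -0.01 and iron genes at -0.04. The pericentral markers stood at 0.10, the periportal markers at 0.01 and the hepatocyte markers at 0.10. Small marker lists lay further from 0. The 5 platelet markers had a median of 0.33, or -0.05 without the first M1 mouse, and 0.16, 0.51 and 0.12 without the first, the second and the third H1 mouse. Bile duct, red blood cell, mast cell, acinar, adipocyte and muscle markers had 1 to 4 measured genes each, with medians of -0.30 to 0.19. Among iron genes, Smad7, an inhibitor of BMP signalling, was separate lower with 226, 235 and 131 in H1 against 324, 271 and 330.4 in M1 (-0.67 ± 0.28), and Id1, a BMP target, overlapped at -0.87 ± 0.41. Hamp, the iron hormone hepcidin, had 49149.7, 52858 and 25817 in H1 against 50723, 55181 and 54593 in M1, where the third H1 liver alone was low.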

How the data were processed

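The authors deposited linear MAS5 signals (intensity) of all 20 arrays, per the submitters' processing notes, with no MAS5 version in the labels used here. Each array had a trimmed mean of 500 (2% off both ends), the mark of global scaling before deposit. The table held 45101 probe sets. Platform annotation gave 1 gene for 34945 of them, several for 932 and none for 9160, and 64 were array controls. Array medians were 81.3 to 104.8, and the number of arrays limits the precision.

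Groups were taken from the titles. Deposited signals were taken to log2(signal + 7.12), the added constant being the 10th percentile of all signals. A filter on dim signals removed probe sets averaging less than the median probe set (22519 stayed), and 1 was used per gene (no _s_at or _x_at first, then the highest mean), which left 11217 genes. limma 3.58.1 in R 4.3.3 (lmFit, eBayes with a variance trend) fitted 8 group means to all 20 arrays, which left 12 residual degrees of freedom. Contrasts were two-sided and p-values were adjusted over all genes by Benjamini-Hochberg, with a threshold of 0.05. The model was tested on simulated data. An exact permutation test of 3 against 3 cannot go below 0.1 and was not run. Errors are standard errors of the contrast. The p-values measure the spread between these mice.

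The named genes were, per direction, the 10 with the smallest p among separate genes with a mean of at least 100 in the higher group, the 3 with the smallest interaction p, and up to 4 members per list by p. The text gives further members of the interferon lists. The members and all 49 gene lists were chosen with earlier results of these data known. Members of a list with no measured probe set were not analysed here. Promoter sequence came from RefSeq, build GRCm38.p6. Title numbers were not used as pairs, since the titles state no shared litter or day. Same-numbered deviations correlated at 0.30, 0.08 and 0.09, against -0.16 to 0.07 for the other pairs. Alternatives covered the pseudocount, filter, scaling, variance model, probe set choice, samples fitted, additive terms, a replicate block and leaving out each mouse.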

Additional observations from a re-analysis of the deposited data

Results flagged for a closer look

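In 3 gene lists the medians of the 3 H1 mice all lay above the mean of the M1 mice and those of the 3 H2 mice all below the mean of the M2 mice, and the difference between experiments was not tested for a list. For the interferon response list the median was 0.88 in H1 against M1 and -0.18 in H2 against M2, where H2 and M2 overlapped. For the lipid droplet list it was 0.15 in H1 against M1 and -0.12 in H2 against M2, with overlap in both. For the hepatocyte markers it was 0.10 in H1 against M1 and -0.16 in H2 against M2, with overlap between H1 and M1.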

How the results depend on the processing

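Calls between H1 and M1 numbered 0 in 19 of 20 alternatives and 0 to 1 when single mice were left out, the 1 being H2bc22 without the first M1 mouse. Calls in the interaction ranged from 0 to 1 (Fmr1nb, lower, without the second M2 mouse), in H1 against L1 from 0 to 9 and in M1 against L1 from 0 to 1 (H2-Ab1, without the second L1 mouse), and H2 against M2 gave 0 throughout. The 9 calls came without the third L1 mouse, and 2 came without the second. The interferon response median ran from 0.59 to 1.07 when single mice were left out and was 0.35 with level and experiment as additive terms, which average it with the 401-day mice. Its separate genes numbered 18 to 24. Of 413 refits of the 22 genes named for H1 against M1 or the interaction, 412 kept their direction, and Frat1 reversed to -0.54 with additive terms. With the title number as a replicate block, calls stayed at 0 (smallest adjusted p 0.0531, 751 at an unadjusted p under 0.05), and the deviations of each H1 array correlated best with those of the M1 array of its number, a hint from the data and not the design. The list medians could not be had with every probe set tested on its own. Signal over background was not available, so dim genes such as Arhgef40, Frat1 and Oas2 carry the least certain differences.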
